A study of Mus musculus with 6 samples.

Results

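The transcripts of 9 chemokine receptor genes, Ccr1, Ccr3, Ccr7, Ccr9, Cxcr3, Cxcr4, Cxcr5, Cxcr6 and Ccrl2, were measured in sorted mouse liver endothelial cells (ECs), out of 24421 gene symbols with read counts. The genes were chosen by name, with their values in aged against young ECs already known. Their difference between the ages is therefore given as a description, without a test, and each was read beside Ptprc of the same library. Ptprc encodes CD45, the surface protein of leukocytes that the sort was set to exclude. The young group held 3 libraries from 10-week-old mice, and the aged group held 1 library each from mice of 127, 131 and 136 weeks. All were wild-type C57BL/6J and untreated as far as the labels say. The study's methods add that the mice were female and that animals with visible tumors or an enlarged liver or spleen were left out. RNA came from liver cells sorted as CD31+CD45-, a gate that takes sinusoidal and vascular ECs together. In such bulk RNA, fewer cells of a type and less RNA per cell cannot be told apart.

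Chemokine receptors are G protein-coupled receptors that steer cells along gradients of secreted chemokines. Most of the 9 are best known from leukocytes: Ccr7 guides lymphocytes and dendritic cells to lymphoid tissue, Cxcr3 and Cxcr6 mark activated T cells and NK cells, Cxcr5 marks B cells and follicular helper T cells, Ccr9 guides lymphocytes to the gut, Ccr3 is the eotaxin receptor of eosinophils, and Ccr1 is found on monocytes and neutrophils. Cxcr4, the receptor of Cxcl12, is used by leukocytes and by ECs of growing vessels. Ccrl2 is an atypical receptor that binds the attractant chemerin without signalling through G proteins, and it is known from endothelium as well as from myeloid cells.

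Libraries held 23001556 to 31651817 counts, so that 3 counts, taken as the floor, corresponded to 0.0948 to 0.130 CPM on total counts. CPM are read counts per library total on a standard scale, and all other CPM values given here were adjusted by the TMM method. Replicates of an age differed by more than counting noise, with a chi-square per degree of freedom of at least 20.5 between any pair. Pecam1, which encodes the CD31 used for the sort, lay between 1366 and 1635 CPM in the 6 libraries. The 11 endothelial markers summed to 22612 to 25079 CPM in young and 12174 to 17996 CPM in aged ECs. Of the 11, 7 were lower in every aged than in every young library, beside 8.33% of the 14612 genes tested. With edgeR's adjusted p 0 were called, beside 0% of all genes. At an unadjusted p under 0.05 with a log2 fold change beyond 1, 3 were lower, beside 1.19%. With DESeq2's adjusted p and that fold 3 were lower, beside 0.527%. Only 2 of the 11, Pecam1 at 0.01 and Lyve1 at 0.58, had a log2 fold change above 0. Ptprc was at 1.56, 1.17 and 1.70 CPM in young ECs 1 to 3 and at 7.57, 1.28 and 25.6 CPM at 127, 131 and 136 weeks. The 136-week library thus had 17.3 times the young mean of Ptprc and the 127-week library 5.11 times, while the 131-week library lay within the young range. Lars2 and Rn45s, a pair of genes whose reads include ribosomal RNA, took 0.960% and 1.29% of counts in the 127-week and young 3 libraries and 4.68% to 5.53% in the other 4, and values within these kinds of library are given below.

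On mm9 with the GENCODE vM1 annotation, 6 of the 9 genes lay on chromosome 9. Ccr9 (chr9:123587557-123691089), Cxcr6 (chr9:123715595-123720872), Ccr1 (chr9:123876959-123883525) and Ccr3 (chr9:123936703-123946421) followed each other, while Ccrl2 (chr9:110957339-110959774) and Cxcr5 (chr9:44319871-44334504) stood apart. Cxcr4 (chr1:130484776-130488870), Ccr7 (chr11:99005510-99016391) and Cxcr3 (chrX:98926874-98929608) were on other chromosomes. All 9 were annotated as protein coding, and no stretch of 75 bases, the read length, in their annotated transcripts was found in another gene's. Ccr9 shared 269 exonic bases with Gm17200 on its own strand, 56 with Gm17021 and 22 with Slc6a20a on the other, so its few counts could be split differently by another counting program. Cxcr6 lay inside Fyco1 on the opposite strand with 0 shared exonic bases.

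Promoter sequence was found for 7 of the 9 genes, and not for Ccr7 and Cxcr5, in the RefSeq table of GRCm38.p6, a later build than that of the reads. The 250 bases before the start are shown 5′ to 3′ for Ccrl2 (chr9:111057519-111057768, minus strand, the first of 3 listed starts), the abundant receptor, and for Ccr1 (chr9:123968693-123968942, minus strand), Cxcr4 (chr1:128592300-128592549, minus strand) and Cxcr6 (chr9:123806227-123806476, plus strand), the genes whose ages did not overlap below. Capitals mark matches, on either strand, to the pattern of an NF-kB site, GGG and CC with any 5 bases between them, or to the letters ACGTG of a hypoxia response element.
Ccrl2: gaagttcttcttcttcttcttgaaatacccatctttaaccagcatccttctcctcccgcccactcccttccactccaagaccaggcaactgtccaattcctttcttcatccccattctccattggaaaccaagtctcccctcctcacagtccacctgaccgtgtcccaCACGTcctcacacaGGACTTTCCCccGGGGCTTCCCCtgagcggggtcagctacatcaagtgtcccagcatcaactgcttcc
Ccr1: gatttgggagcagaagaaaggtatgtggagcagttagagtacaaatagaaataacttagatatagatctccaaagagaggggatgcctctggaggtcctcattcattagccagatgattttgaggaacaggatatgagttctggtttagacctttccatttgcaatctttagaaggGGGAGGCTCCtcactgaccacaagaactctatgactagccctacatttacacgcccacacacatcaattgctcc
Cxcr4: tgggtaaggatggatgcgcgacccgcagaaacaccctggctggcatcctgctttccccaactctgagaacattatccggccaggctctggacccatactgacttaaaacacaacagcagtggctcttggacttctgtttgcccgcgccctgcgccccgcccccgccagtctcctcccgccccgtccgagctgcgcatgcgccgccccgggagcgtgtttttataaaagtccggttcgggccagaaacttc
Cxcr6: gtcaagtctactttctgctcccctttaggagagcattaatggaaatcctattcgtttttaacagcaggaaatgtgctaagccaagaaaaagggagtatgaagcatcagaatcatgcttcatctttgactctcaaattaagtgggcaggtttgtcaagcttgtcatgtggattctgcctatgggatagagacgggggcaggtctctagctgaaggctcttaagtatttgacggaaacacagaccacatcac
The Ccrl2 stretch held 3 overlapping or adjacent matches to the NF-kB pattern, whose first bases lay between 68 and 55 bases before the start. It also held 1 match to ACGTG with its first base at 82 bases, and the Ccr1 stretch held 1 match to the NF-kB pattern. No match to either was found in the Cxcr4 and Cxcr6 stretches, which were also without the letters TGANTCA (AP-1) and GAGGAAGT (PU.1) on both strands. Over 32536 distinct promoters of this length, the NF-kB pattern occurred in 46.0%, ACGTG in 16.7%, TGANTCA in 6.73% and GAGGAAGT in 2.45%. Among the 7 genes with a sequence, 5 held the NF-kB pattern, while Ccrl2 alone held ACGTG, Ccr3 alone TGANTCA and Cxcr3 alone GAGGAAGT. A gene was counted if any of its listed starts matched, whereas the shares above are per promoter. For Ccrl2 only the first of the 3 listed starts held the NF-kB pattern. The GC content was 54.0% for the printed Ccrl2 stretch, 61.2% for Cxcr4, and 43.6% for both Ccr1 and Cxcr6, beside a median of 52.4% over all promoters.

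Per length of transcript, Ccrl2 was the abundant receptor of the 9, and the other 8 were far lower. These 8 had 1 to 47 counts each per young library, beside the floor of 3 counts. On the FPKM scale, which divides by transcript length and library size, Ccrl2 was at 54.0, 61.6 and 57.8 in young ECs and at 46.1, 63.3 and 79.0 at 127, 131 and 136 weeks. Its mean exceeded that of 93.6% of all genes with an FPKM value. Ccr7, next in the order in young ECs, averaged 0.571 ± 0.277 FPKM (SD, n = 3), followed by Cxcr3 at 0.533 ± 0.252, Cxcr4 at 0.292 ± 0.0596, Ccr1 at 0.211 ± 0.0947, Cxcr5 at 0.198 ± 0.0599, Cxcr6 at 0.149 ± 0.119, Ccr9 at 0.0878 ± 0.0673 and Ccr3 at 0.0379 ± 0.0245. Only the step from Ccrl2 to Ccr7 was free of overlap between libraries, since every later neighbour in that order had overlapping FPKM values. In aged ECs the order began in the same way with Ccrl2, Ccr7, Cxcr3 and Cxcr4, continued with Cxcr6, Ccr1, Cxcr5 and Ccr3 and ended with Ccr9, and again only Ccrl2 stood clear of its neighbour. Ccrl2 made up 96.3%, 96.7% and 96.6% of the summed FPKM of the 9 genes in young ECs, and 91.3%, 95.4% and 77.4% at 127, 131 and 136 weeks. The remaining share was thus largest in the library richest in Ptprc.

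**Figure D1:**
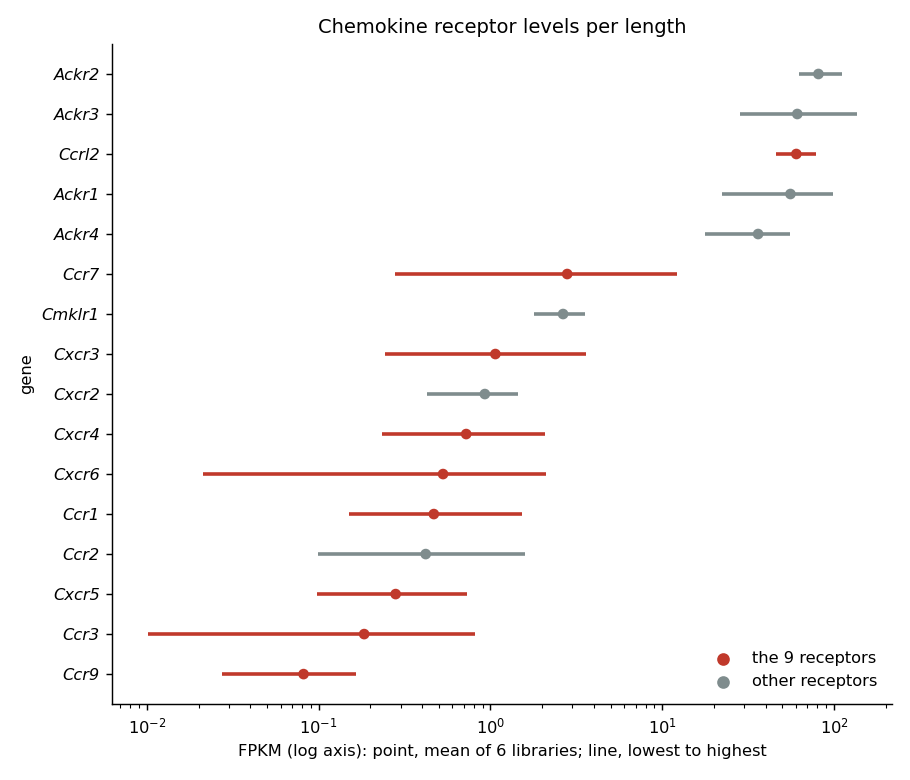
FPKM on a log axis for the 9 receptors (red) and the other chemokine-binding receptors named in the text (grey). Points are means of the 6 libraries and lines run from the lowest to the highest library; Ccrl2 sits with the atypical receptors Ackr1 to Ackr4, and the other 8 red points lie at or below 2.80 FPKM.

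Ccrl2 differed little between the ages. It gave 2521, 2390 and 3048 counts in young and 2277, 2855 and 3414 counts in 127-, 131- and 136-week ECs, which is 93.8, 108 and 96.2 CPM against 78.3, 111 and 139 CPM. The 127-week library was the lowest of all 6 and the 136-week library the highest, so the young values lay inside the aged range. The log2 fold change of aged against young ECs was 0.14 ± 0.22 (SE), and -0.07 without the 136-week library. Ccrl2 did not follow Ptprc, since the 127-week library with 5.11 times the young mean of Ptprc had 0.789 times the young mean of Ccrl2.

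Ccr7 was the receptor nearest to Ptprc. It gave 29, 11 and 47 counts in young ECs and 116, 35 and 552 counts at 127, 131 and 136 weeks. In CPM these were 1.08, 0.496 and 1.48 in young and 3.99, 1.36 and 22.4 in aged ECs. The 127- and 136-week libraries lay above all young ones and the 131-week library lay among them, the same arrangement as for Ptprc, so the ages overlapped. Its log2 fold change was 3.16 ± 1.01 (SE), and 1.38 without the 136-week library, beside 2.95 ± 0.93 and 1.58 for Ptprc.

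Cxcr3 and Cxcr6, both receptors of activated T cells and NK cells, were highest at 136 weeks. Cxcr3 was at 0.931, 1.04 and 0.347 CPM in young ECs and at 1.10, 0.661 and 5.28 CPM at 127, 131 and 136 weeks, with 11 to 25 counts per young library and 130 counts at 136 weeks. The 131-week library lay within the young range and the 127-week library just above it, and the log2 fold change of 1.61 ± 0.87 (SE) was 0.20 without the 136-week library. Cxcr6 was at 0.0372, 0.496 and 0.284 CPM in young and at 0.585, 0.506 and 3.74 CPM in aged ECs. All 3 aged libraries lay above all young ones, but the gap between the highest young and the lowest aged library rested on 11 against 13 counts, and young library 1 had a single count. For Cxcr6 the log2 fold change was 2.56 ± 1.11 (SE), and 1.01 without the 136-week library.

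Cxcr4 was higher in every aged library than in every young one, and its order among the aged libraries was not that of Ptprc. It gave 13, 14 and 12 counts in young and 20, 42 and 86 counts in 127-, 131- and 136-week ECs, which is 0.484, 0.632 and 0.379 CPM against 0.688, 1.63 and 3.49 CPM. The 131-week library, with Ptprc inside the young range, had 3.28 times the young mean of Cxcr4, and the 127-week library, with more Ptprc, had 1.38 times. The log2 fold change was 1.95 ± 0.69 (SE), and 1.22 without the 136-week library.

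The myeloid receptors Ccr1 and Ccr3 were also highest at 136 weeks. Ccr1 was at 0.447, 0.406 and 0.852 CPM in young ECs and at 0.929, 0.856 and 4.18 CPM at 127, 131 and 136 weeks. Its ages did not overlap on this scale, but young 3 and the 131-week library differed by only 0.852 against 0.856 CPM, and in FPKM their order was turned, at 0.320 against 0.299. For Ccr1 the log2 fold change was 1.79 ± 0.77 (SE), and 0.64 without the 136-week library. Ccr3 gave 4, 4 and 1 counts in young ECs and 15, 1 and 64 counts in aged ECs, so that young 3 and the 131-week library lay under the floor of 3 counts. Its log2 fold change of 3.11 ± 1.38 (SE), the least precise of the 9, was 1.23 without the 136-week library.

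Cxcr5 and Ccr9 overlapped between the ages. Cxcr5 was at 0.521, 0.767 and 0.599 CPM in young and at 0.344, 0.856 and 1.95 CPM in 127-, 131- and 136-week ECs. The 127-week library was the lowest of all 6 despite its Ptprc level, and the log2 fold change of 0.73 ± 0.72 (SE) was -0.07 without the 136-week library. Ccr9 gave 19, 5 and 6 counts in young ECs and 14, 3 and 9 counts in aged ECs. It was highest in young 1, at 0.707 CPM, and had a log2 fold change of -0.21 ± 0.88 (SE). No other gene of the 9 had its highest value outside the 136-week library.

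**Figure D2:**
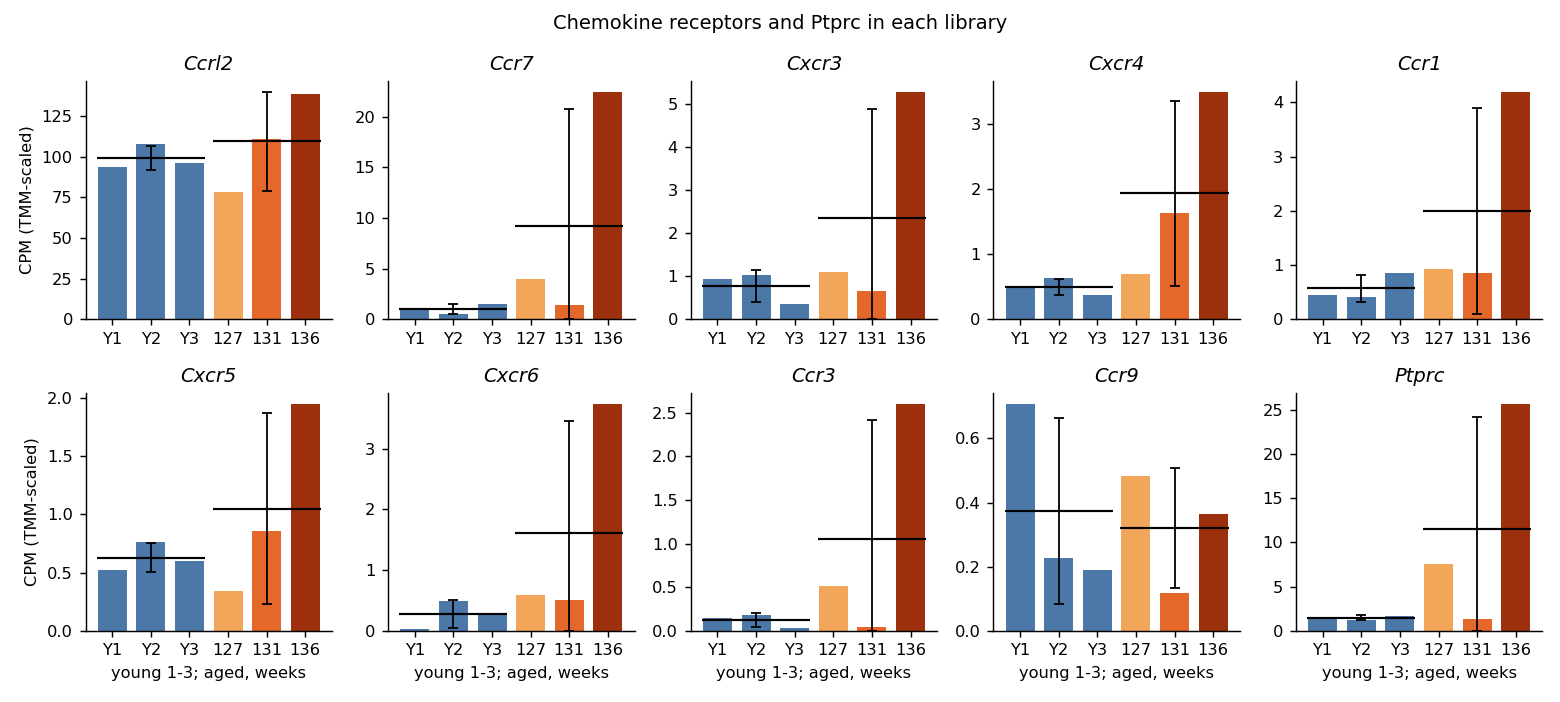
CPM (TMM-scaled) of the 9 receptors and Ptprc in young libraries 1 to 3 (blue) and the 127-, 131- and 136-week libraries (orange to brown), 1 bar per library and each panel with its own axis from 0. Black lines are group means with their SD; the 136-week bar is the highest in every panel but that of Ccr9, and the 131-week bar is near the young bars for Ptprc and Ccr7 but not for Cxcr4.

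All 9 genes passed the filter of 0.5 CPM in at least 1 library, 7 of them in young and aged libraries and 2, Ccr3 and Cxcr6, through aged libraries alone. The aged values lay above all young values for 3 of the 9, Ccr1, Cxcr4 and Cxcr6, beside 9.62% of the 14612 genes tested. They lay below for 0 of the 9, beside 8.33%. The log2 fold change was above 0 for 8 of the 9, beside 51.1% of all genes, with a median of 1.79 beside 0.0098 over all genes. The 136-week library was the highest of the 6 for 8 of the 9, beside 25.7% of all genes. With edgeR's quasi-likelihood test and adjustment over all genes, 0 of the 9 and 0 of all genes (0%) passed an adjusted p of 0.05 with a log2 fold change beyond 1. At an unadjusted p under 0.05 with that fold, 2 of the 9 were higher in aged ECs, Ccr7 and Cxcr4, beside 5.43% of all genes, and 0 were lower, beside 1.19%. With DESeq2's adjusted p 1 was higher, Ccr7, beside 2.70%, and 0 were lower, beside 0.527%. As the genes were picked from this contrast, nothing is read from these counts.

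The 136-week library carried much of these differences. Without it the median log2 fold change of the 9 genes was 0.64. Within the libraries low in Lars2 and Rn45s, the log2 difference of the 127-week library over young 3 was 0.44 for Cxcr4, 0.47 for Cxcr6, 0.08 for Ccr1 and 1.18 for Ccr7. Within the other 4, the 131- and 136-week libraries lay above young 1 and 2 by 1.47 for Cxcr4, 1.50 for Cxcr6, 1.44 for Ccr1 and 2.38 for Ccr7, on log2(CPM + 0.5) means. The direction was the same in both kinds of library for these 4 genes. It differed for Ccrl2, at -0.29 and 0.30, for Cxcr5, at -0.38 and 0.68, and for Ccr9, at 0.51 and -0.36.

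**Figure D3:**
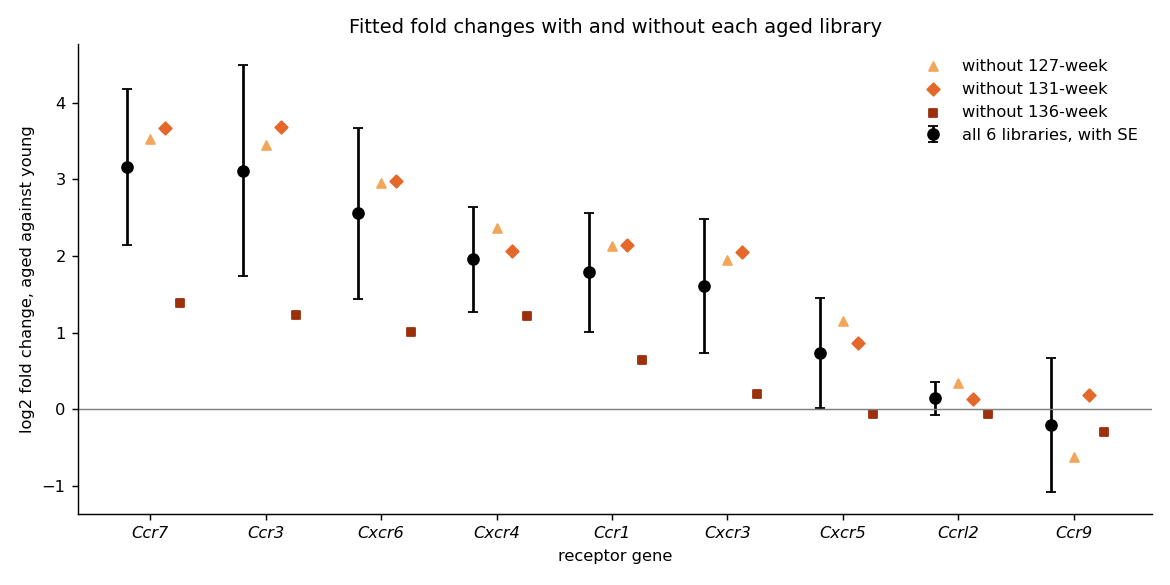
Log2 fold change of aged against young ECs for each receptor from edgeR, with its standard error (black) and with each aged library left out in turn (coloured symbols). Without the 136-week library 6 receptors stay above 0, the highest at 1.38 for Ccr7, and Cxcr5, Ccrl2 and Ccr9 lie just below it.

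Counts of each receptor were divided by the Ptprc counts of the same library, 42, 26 and 54 in young ECs and 220, 33 and 631 at 127, 131 and 136 weeks. A receptor whose RNA came with Ptprc in a fixed proportion would keep its ratio across libraries. Ccr7 came closest, at 0.690, 0.423 and 0.870 counts per Ptprc count in young ECs and 0.527, 1.06 and 0.875 at 127, 131 and 136 weeks, a 2.51-fold range while Ptprc itself ranged from 26 to 631 counts. The 95% counting intervals, from exact binomial bounds, overlapped between young 2 (0.189 to 0.886) and the 131-week library (0.640 to 1.76). They did not overlap between the 127-week (0.417 to 0.663) and 136-week (0.779 to 0.982) libraries.

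Ratios of the other receptors spread more widely. Cxcr4 was at 0.310, 0.538 and 0.222 counts per Ptprc count in young ECs and at 0.0909, 1.27 and 0.136 in 127-, 131- and 136-week ECs, so the aged group held both the highest ratio and the lowest. The interval of the 131-week library (0.788 to 2.07) lay clear of those of the 127-week (0.0545 to 0.144) and 136-week (0.108 to 0.171) libraries. Ccr1 ranged 5.43-fold, Cxcr3 6.08-fold, Ccr3 8.31-fold, Cxcr5 14.7-fold, Cxcr6 17.8-fold and Ccr9 31.7-fold, the lower ends of Ccr3 and Cxcr6 each resting on a library with a single count. Ccrl2 was at 60.0, 91.9, 56.4 and 86.5 counts per Ptprc count in the young and 131-week libraries and at 10.4 and 5.41 in the 127- and 136-week libraries, a pattern shared with Pecam1, whose ratio ran from 63.8 to 1170. The 8 genes other than Ccrl2 together gave 2.79, 3.62 and 2.44 counts per Ptprc count in young ECs and 1.14, 4.70 and 1.72 in aged ECs. Their sum per Ptprc count was therefore lowest in the 2 libraries with the most Ptprc.

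**Figure D4:**
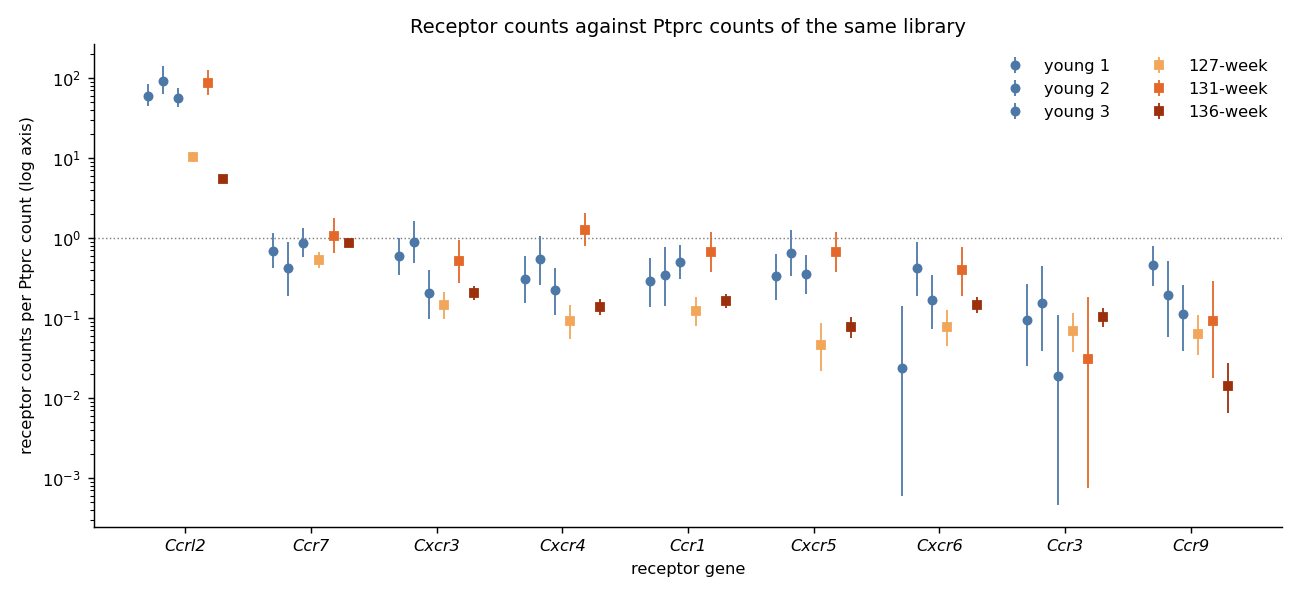
Counts of each receptor per Ptprc count of the same library (log axis), for young libraries (blue circles) and the 127-, 131- and 136-week libraries (orange to brown squares), with 95% exact counting intervals. The Ccr7 points lie between 0.423 and 1.06, while the Ccrl2 points of the 127- and 136-week libraries lie below the other 4.

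Profiles over the 6 libraries were also compared as the root mean square (RMS) difference between centred log2(CPM + 0.5) values, in log2 units. The Pecam1 profile was nearly flat, so a small difference from it marks a gene that varied little. Ccr7 differed from Ptprc by 0.325 and from Pecam1 by 1.41, and 0.0753% of all genes tested lay nearer to Ptprc than Ccr7 did. Ccr3, at 0.672 from Ptprc and 0.829 from Pecam1, and Cxcr6, at 0.820 and 0.860, were also nearer to Ptprc. These made 3 of the 9, beside 3.07% of all genes. Of these, Ccr3 and Cxcr6 passed the filter through aged libraries alone, and all 9 were picked from this contrast. Nothing is therefore read from this count. Cxcr3 (0.839 and 0.824) and Ccr1 (0.835 and 0.707) lay about midway, Cxcr4 (1.09 and 0.723) was nearer to Pecam1, and Cxcr5 (0.420), Ccr9 (0.366) and Ccrl2 (0.212) were nearest to Pecam1. With a pseudocount of 1, which damps genes of low counts, Ccr7 alone was nearer to Ptprc, and with 0.1 there were 5, with Ccr1 and Cxcr3 added.

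**Figure D5:**
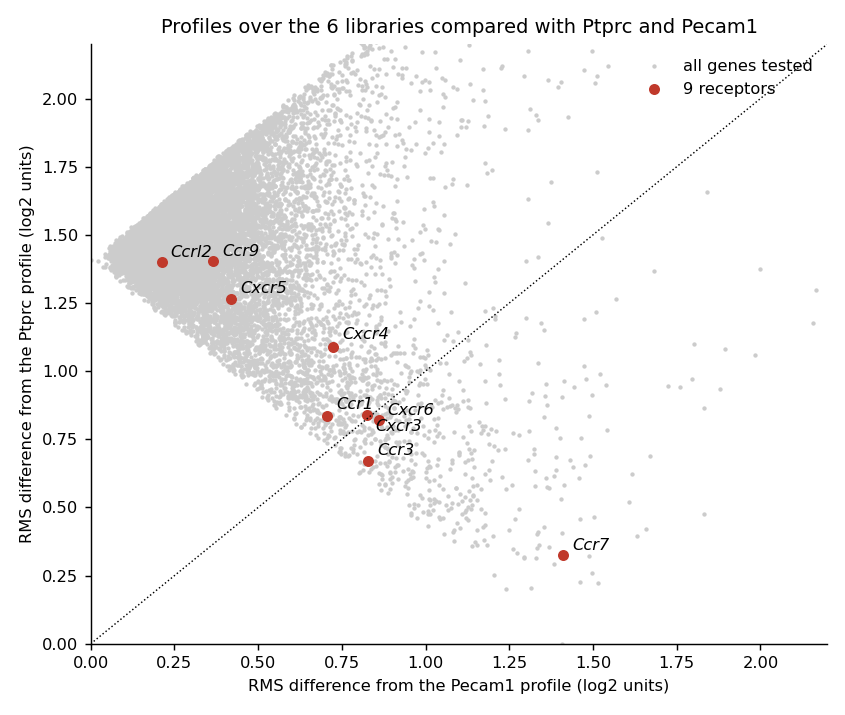
RMS difference of each profile from Pecam1 (horizontal) and from Ptprc (vertical), in log2 units over 6 libraries, for the 9 receptors (red) and all genes tested (grey; genes farther away are not drawn). Points below the dotted line are nearer to Ptprc; Ccr7, at 1.41 and 0.325, stands apart from the other 8.

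For the 5 receptors with a mean of at least 1 CPM, the genes with the nearest profiles were listed over the 6 libraries. Among 95 genes of the marker lists, those nearest to Ccr7 were Ptprc (0.325), Cd52 (0.374) and Laptm5 (0.426), all of the pan-leukocyte list. Nearest to Ccrl2 were Lcp1 (0.193), a pan-leukocyte gene, and the endothelial Pecam1 (0.212) and Cdh5 (0.226). Nearest to Cxcr4 were Retnlg of neutrophils (0.250), Cd247 of T cells (0.376) and Eomes of NK cells (0.380). Cxcr3 lay nearest to the B cell genes Ms4a1 (0.226) and Cd79b (0.252) and to Cd4 (0.254), and Ccr1 to Cd79a (0.167) and Cd5 (0.204). Among all genes tested the nearest were Oas3, Napsa and Il1rn for Ccr7, Zfp719, Msl2 and Vgll4 for Ccrl2, Pcdh1, Fam83g and Diras2 for Cxcr4, 4930578C19Rik, H2-Oa and Nov for Cxcr3, and Neto2, Dnajc22 and Specc1 for Ccr1. Neto2, H2-Oa, Fam83g and Diras2 averaged under 1 CPM, as did the markers named for Cxcr4 and Cxcr3, and single counts weigh more in such profiles.

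Many leukocyte markers, like 8 of the 9 receptors, were highest at 136 weeks. Of the 10 pan-leukocyte genes, 9 were highest at 136 weeks, 9 had a log2 fold change above 0 with a median of 2.09, and 0 passed edgeR's adjusted p, with 6 higher at an unadjusted p under 0.05 with a log2 fold change beyond 1 and 2 at DESeq2's adjusted p with that fold. Their sum, 424 to 452 CPM in young and 309, 351 and 547 CPM in 127-, 131- and 136-week ECs, was mostly Arhgdib and Lcp1. Arhgdib was lower in every aged library, at 188 to 251 CPM against 321 to 346 CPM in young ECs (log2 fold change -0.65, adjusted p = 0.238 with edgeR and 0.0106 with DESeq2), while Laptm5 was at 4.87 to 10.2 CPM in young and at 16.4, 5.33 and 67.7 CPM in aged ECs. The 11 T cell markers summed to 8.67 to 10.4 CPM in young ECs and to 21.9, 11.2 and 38.0 CPM at 127, 131 and 136 weeks. Most of the young sum was Lck, at 5.69 to 8.90 CPM in young and 13.5, 8.79 and 13.1 CPM in aged ECs. Cd3d, Cd3e and Cd3g, named after their values were seen, had 0 to 2 counts per young library. At 127, 131 and 136 weeks Cd3d had 17, 0 and 30 counts, Cd3e 13, 3 and 74, and Cd3g 23, 0 and 70. The 4 of 6 NK cell markers that could be tested were all highest at 136 weeks, and the list summed to 0.0947 to 0.948 CPM in young and 2.99, 0.583 and 17.0 CPM in aged ECs. B cell markers summed to 2.66 to 4.92 CPM in young and 3.99, 4.24 and 10.5 CPM in aged ECs, with the defining gene Pax5 at 0 counts in all libraries. For all these lists the 131-week library was the nearest to the young sums or within them.

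Kupffer cell and neutrophil sums were also highest at 136 weeks, but at 131 weeks the former lay below the young range and the latter within it. The 10 Kupffer cell and macrophage markers summed to 85.6 to 100 CPM in young ECs and to 127, 19.2 and 207 CPM at 127, 131 and 136 weeks, and 7 neutrophil markers to 2.46 to 4.11 CPM and to 10.9, 2.61 and 52.1 CPM. Dendritic cell markers, mostly Zbtb46, summed to 104 to 136 CPM in young ECs and to 121, 113 and 82.9 CPM at 127, 131 and 136 weeks. Zbtb46 was lowest at 136 weeks, at 68.2 CPM, while 3 of the 6 genes were highest there. Itgax, among these, was at 0 to 1.01 CPM in young and 0.310, 0.778 and 4.39 CPM in aged ECs. The list of eosinophils, basophils and mast cells summed to 0.596 to 1.58 CPM in young and 1.72, 0.467 and 4.10 CPM in aged ECs. Mcpt8 was most of this sum at 136 weeks, at 2.84 CPM, while Prg2, Epx and Siglecf had 2, 0 and 4 counts there. In none of the T cell, NK cell, B cell, Kupffer cell, neutrophil, dendritic cell or eosinophil lists did a gene pass edgeR's adjusted p, while an unadjusted p under 0.05 with a log2 fold change beyond 1 was reached by 6 T cell, 2 NK cell and 2 neutrophil markers, all higher in aged ECs, and DESeq2 called 1 of each of these 3 lists with that fold. Plasma cell markers summed to 44.6 to 135 CPM in young and 104 to 182 CPM in aged ECs, platelet markers to 28.3 to 32.8 and 22.5 to 29.6 CPM, hepatocyte markers to 229 to 305 and 185 to 308 CPM, stellate and mural cell markers to 127 to 405 and 221 to 692 CPM, and lymphatic endothelial markers to 2042 to 3123 and 2043 to 5566 CPM. The plasma cell sum was nearly all Sdc1, at 44.0 to 132 CPM in young and 101 to 169 CPM in aged ECs. Trf was the largest part of the hepatocyte sum, at 116 to 172 and 105 to 243 CPM. Only 1 of the 7 hepatocyte genes had a log2 fold change above 0, with a median of -0.73. Reln was the largest part of the stellate and mural cell sum, at 69.9 to 181 and 109 to 496 CPM. The part of these cells in the receptor values was not tested. Cxcr4 at 131 weeks was 3.28 times the young mean in a library whose Ptprc was 0.867 times the young mean.

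The other receptors of the family were then examined in the same fit. Of 16 listed, 11 passed the filter and 0 were called, at an adjusted p with edgeR, at an unadjusted p under 0.05 with the fold, or with DESeq2. Their median log2 fold change was 0.37, with 9 above 0 and with 0 whose ages did not overlap. Atypical receptors, which capture chemokines without G protein signalling, were the abundant ones beside Ccrl2. Over the 6 libraries, Ackr2, a scavenger of inflammatory CC chemokines, averaged 81.1 FPKM, Ackr3, the second receptor of Cxcl12, 61.1 FPKM, Ccrl2 60.3 FPKM, Ackr1, the Duffy antigen receptor, 55.7 FPKM and Ackr4, a scavenger of the Ccr7 ligands, 36.1 FPKM.

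Ackr3 was at 82.8, 96.4 and 52.3 CPM in young and 143, 62.1 and 261 CPM in 127-, 131- and 136-week ECs, with a log2 fold change of 1.01 and an edgeR adjusted p of 0.452. Ackr4 was at 98.0, 109 and 55.1 CPM in young and 34.5, 88.9 and 41.3 CPM in aged ECs (log2 fold change -0.67, edgeR adjusted p = 0.553), and Ackr2 and Ackr1 had log2 fold changes of -0.36 and 0.37. In none of these did the ages stand apart. Cmklr1, the signalling receptor of chemerin, averaged 7.50 CPM and Cxcr2, a neutrophil receptor, 2.73 CPM. The monocyte receptor Ccr2 was at 0.670, 0.542 and 0.473 CPM in young ECs and 1.31, 0.389 and 5.60 CPM in aged ECs, highest of all 6 libraries at 136 weeks and lowest at 131 weeks.

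Ligands of the 9 receptors ranged from 0 counts to a mean of 682 FPKM, that of Cxcl10. Of 16 listed, 14 passed the filter, and 0 were called at edgeR's adjusted p, 4 were higher in aged ECs at an unadjusted p under 0.05 with the fold, and 3, Ccl5, Ccl7 and Cxcl10, were higher with DESeq2. Their median log2 fold change was 0.85. The Cxcr3 ligand Cxcl10, which interferons induce, was the most abundant at 173, 178 and 566 CPM in young and 851, 550 and 1484 CPM in 127-, 131- and 136-week ECs, with a log2 fold change of 1.65 and an adjusted p of 0.326 with edgeR and 0.0346 with DESeq2. Its relatives Cxcl9 and Cxcl11 had log2 fold changes of 0.71 and 1.57, with edgeR adjusted p-values of 0.522 and 0.464. Ccl5, a ligand of Ccr1 and Ccr3, had 0.372, 0.135 and 0.252 CPM in young and 4.40, 0.545 and 22.9 CPM in aged ECs, and was the only listed ligand whose aged values all lay above the young ones. Its log2 fold change of 5.15 had an adjusted p of 0.243 with edgeR and 0.000104 with DESeq2.

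Ccl7, another ligand of Ccr1 and Ccr3, was at 1.27 to 2.26 CPM in young ECs and 9.35, 1.79 and 45.3 CPM in aged ECs (log2 fold change 3.56, adjusted p = 0.277 with edgeR and 0.00294 with DESeq2). Cxcl13, the ligand of Cxcr5, was at 0.226 to 0.505 CPM in young ECs and at 3.78, 0.0778 and 116 CPM at 127, 131 and 136 weeks, so its level came from the 136-week library (edgeR adjusted p = 0.301), and DESeq2 gave it no adjusted p. Cxcl12, the ligand of Cxcr4 and Ackr3, was at 104, 92.3 and 23.1 CPM in young and 70.2, 41.1 and 303 CPM in aged ECs, with a log2 fold change of 0.92 (edgeR adjusted p = 0.711). The 131-week library, where Cxcr4 lay above the young range, thus had a Cxcl12 level inside it. Cxcl16, the membrane-bound ligand of Cxcr6, was at 300, 267 and 385 CPM in young and 257, 271 and 175 CPM in aged ECs (log2 fold change -0.44, edgeR adjusted p = 0.478). Ccl24, a Ccr3 ligand named after its values were seen, was the only one whose aged values all lay below the young ones, at 0.0389 to 0.325 against 0.447 to 0.915 CPM, and Ccl26 and Ccl21a had 0 counts in all libraries.

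Among 18 genes of receptor signalling, all tested, 0 were called at edgeR's adjusted p, and 1, Rgs16, was higher in aged ECs at an unadjusted p under 0.05 with the fold and with DESeq2. The median log2 fold change was 0.08. Rgs16, a regulator that shortens G protein signals, was at 43.1, 37.6 and 28.4 CPM in young and 229, 103 and 517 CPM in 127-, 131- and 136-week ECs, a log2 fold change of 2.96 with an adjusted p of 0.193 with edgeR and 1.65e-06 with DESeq2. All its aged values lay above the young ones, the 131-week library included, and without the 136-week library the log2 fold change was 2.19. The G protein subunits Gnai2, Gnai3, Gnb1 and Gnb2 had log2 fold changes of -0.06, 0.23, 0.03 and -0.14, and Rgs3 and Jak2 of 0.17 and -0.02. Aged values lay below all young ones for the arrestin gene Arrb1, at 164 to 203 against 224 to 231 CPM, and for Grk6 and Pik3cg, named after their values were seen, with log2 fold changes of -0.32, -0.12 and -0.43.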

How the data were processed

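Liver ECs (CD31+CD45-) were sorted and sequenced as 75-base single-end reads. The authors called bases with CASAVA 1.8.2, mapped to mm9 with TopHat2 2.1.0 and deposited raw read counts per gene symbol. A second table, likewise deposited, held FPKM made with Cuffnorm 2.2.1 and scaled between samples. Counting program, annotation and strand setting are not given in the sources used here.

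The 14612 genes reaching 0.5 CPM in 1 or more libraries were TMM-normalized and fitted with edgeR's quasi-likelihood test (edgeR 4.0.16, R 4.3.3) on 3 young against 3 aged samples, with Benjamini-Hochberg adjustment over all genes. A call needed an adjusted p under 0.05 and a log2 fold change beyond 1, and the smallest adjusted p was 0.0735. Standard errors are the log2 fold change over the square root of F. The test was checked on simulated data. DESeq2 1.42.0 and limma 3.58.1 were alternatives, as were other scalings, filters, pseudocounts, a term for libraries with under or over 3% of counts on Lars2 plus Rn45s, and leaving out each library. Members and lists were chosen with earlier results of these data known. Named genes were every member, Ptprc and Pecam1, up to 8 genes of a list by mean CPM, up to 3 per marker list, those at 0 throughout, and the 3 nearest profiles; some genes that the rule names are not reported here. Floors and intervals cover counting error only, since reads carried no molecular identifiers. The labels do not say that samples came from separate animals, although the methods call them independent, so errors measure the spread between these samples.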

Additional observations from a re-analysis of the deposited data

How the results depend on the processing

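Over all genes, edgeR called 0, while 4 were called without a filter on low counts, 472 with DESeq2 (395 higher, 77 lower), 1 with limma on log2(FPKM + 0.1), 2 with the library term, 967 at an unadjusted p with the same fold (793 higher, 174 lower) and 0 to 1 when a library was left out. Called ligands went from 0 to 3 with DESeq2 and 4 at an unadjusted p, and signalling genes from 0 to 1 with each. The cause was not tested. The receptors whose ages did not overlap numbered 3 of the 9, beside 17.9% of all genes tested, both directions together. They numbered 3 to 6 when a library was left out, 5 without the 127-week and 6 without the 131-week library, where fewer values have to stay apart. The share over all genes was not taken for those settings, so nothing is read from the rise. In FPKM and in CPM on total counts 2 receptors stayed apart, since Ccr1 overlapped. The median log2 fold change of the 9, 1.79, was 0.44 on log2(FPKM + 1), a scale that shrinks low values, and 0.64 to 2.13 with a library left out, the lowest without the 136-week library. Receptors nearer to Ptprc than to Pecam1 numbered 3, but 5 with a pseudocount of 0.1, 1 with a pseudocount of 1, and 1 to 5 with a library left out, 1 without the 136-week and 5 without the 127-week library, and Ccr7 was among them in every setting run. Of 128 fold changes of single receptors under alternatives, 115 moved by less than the SD of the aged samples and 4 changed sign, all of Ccr9, Cxcr5 or Ccrl2. Of the 13 that moved further, 5 came from leaving out the 136-week library. That SD includes the 136-week library and is wide, so the count of 115 is a weak sign of stability. The fall of Ccr7 from 3.16 to 1.38 without that library stayed within it. No paired analysis was run, because neither the labels nor the methods pair young with aged samples.

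Depth limits the 8 receptors other than Ccrl2, which had 56 to 790 counts each over all 6 libraries, so ratios between single libraries carry wide counting error.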
